A study of Mus musculus with 16 samples.

Results

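The Rnf, Trim, Fbxo, Fbxl and Fbxw genes form 5 name families whose proteins mostly attach ubiquitin to other proteins or choose which proteins receive it. They were taken from lists of N6-methyladenosine (m6A) peaks in mouse liver as all genes named Rnf, Trim, Fbxo, Fbxl or Fbxw followed by a number. A peak in at least 1 list made a gene a member, and no measured level or difference was used. This gave 104 of 8284 genes, with 42 Rnf, 31 Trim, 18 Fbxo, 8 Fbxl and 5 Fbxw genes, and 368 of 28297 peaks. The livers came from 4 db/db mice and 4 lean mice, all male. The db/db mice carry a mutation of the leptin receptor that makes them obese and diabetic, and the labels give db/db as their strain. The lean controls are labelled C57BL/6. The labels give neither age nor the strain background of the db/db mice, and they list each mouse as a separate sample.

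Ubiquitin passes from an activating enzyme (E1) to a conjugating enzyme (E2) and then, with the help of a ligase (E3), to a target protein, which is often degraded by the proteasome. Most Rnf proteins bind an E2 through a zinc-holding RING domain. Trim proteins carry a RING, B-box and coiled-coil array, and many act in antiviral defence. F-box proteins are the substrate receptors of SCF ligases, in which a cullin scaffold joins them to a RING subunit, and they are sorted by their substrate-binding part into Fbxw (WD40 repeats), Fbxl (leucine-rich repeats) and Fbxo (other). m6A is a methyl mark on adenosines of RNA that affects how long an mRNA lasts and how it is spliced and translated, and it is often found near stop codons.

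In methylated RNA immunoprecipitation sequencing, fragmented RNA is pulled down with an antibody to m6A, and a peak is a stretch of the genome where reads pile up. Each mouse had 1 deposited list of peaks, and the matching input libraries were not analysed here. The study set livers of obese, diabetic mice against lean ones to find out whose transcripts bear the mark. Lists held 2475 to 4807 peaks, sequencing depth was unknown, and the lists hold no expression level. A gene without a peak may lack the mark, may be little expressed or may have too few reads, and in whole liver fewer cells of a type and less RNA per cell cannot be told apart. Of 8 hepatocyte marker genes 4 had a peak, and Alb, Apob, Cps1 and Tf had none, so the lists do not show which genes a liver expresses. Peaks were also listed in 6 of 7 macrophage markers, 6 of 6 sinusoidal endothelial markers, 6 of 7 stellate cell markers, 1 of 4 lymphocyte markers, 3 of 4 cholangiocyte markers and 1 of 4 muscle markers.

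Some member regions lay at an annotated start of transcription. Regions are peaks of different mice joined where they share at least 1 base. A RefSeq promoter window runs from 250 bases before to 50 bases after an annotated start, and a gene can have several. Some of these starts lie inside the gene, as in Rnf144b, where such a region lay 71.3 kb from the start of the gene. Of 201 member regions in genes with such a window, 19 shared at least 1 base with a window of their own gene, or 9.45%. Over all genes it was 1599 of 13716 regions, or 11.7%. The last 150 bases of such a window are given here for the 6 members whose overlapping region was seen in at least 2 mice. In these windows part of the sequence under the region could be read. Each is printed 5′ to 3′ without its first part, from 100 bases before to 50 bases after the annotated start, from RefSeq GRCm38.p6, and capitals mark the bases that the m6A region covers.
Fbxo36 (chr1:84839741-84839890, plus strand): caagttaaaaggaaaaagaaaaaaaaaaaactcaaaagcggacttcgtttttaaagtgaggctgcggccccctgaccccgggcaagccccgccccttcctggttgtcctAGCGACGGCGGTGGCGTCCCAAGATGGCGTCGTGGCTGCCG
Trim26 (chr17:36837046-36837195, plus strand): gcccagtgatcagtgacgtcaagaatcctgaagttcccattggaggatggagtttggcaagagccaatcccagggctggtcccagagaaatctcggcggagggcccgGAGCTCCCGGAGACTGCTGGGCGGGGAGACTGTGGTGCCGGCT
Rnf149 (chr1:39577298-39577447, minus strand): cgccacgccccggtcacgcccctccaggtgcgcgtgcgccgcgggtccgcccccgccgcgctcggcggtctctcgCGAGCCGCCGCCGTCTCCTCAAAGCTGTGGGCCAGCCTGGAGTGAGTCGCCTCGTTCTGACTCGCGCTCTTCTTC
Fbxo46 (chr7:19119759-19119908, plus strand): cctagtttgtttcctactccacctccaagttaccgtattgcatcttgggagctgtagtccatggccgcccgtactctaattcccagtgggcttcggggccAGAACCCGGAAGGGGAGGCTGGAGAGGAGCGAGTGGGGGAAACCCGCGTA
Fbxo9 (chr9:78108607-78108756, minus strand): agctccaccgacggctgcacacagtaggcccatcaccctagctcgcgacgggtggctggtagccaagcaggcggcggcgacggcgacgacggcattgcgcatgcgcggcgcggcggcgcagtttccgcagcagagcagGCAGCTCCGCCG
Rnf34 (chr5:122850088-122850237, plus strand): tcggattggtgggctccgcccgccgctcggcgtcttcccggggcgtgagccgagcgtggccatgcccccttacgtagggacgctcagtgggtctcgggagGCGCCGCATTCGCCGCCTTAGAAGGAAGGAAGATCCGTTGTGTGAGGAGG

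Counted from the annotated start of its window, the region began at that base in Fbxo46 and Rnf34. In Trim26 and Fbxo36 it began 7 and 9 bases further on, and in Rnf149 it began 25 bases before. The annotated bounds of Rnf34, Rnf149, Trim26 and Fbxo9 begin further upstream than these starts. The Rnf149 region lies inside its gene. The Fbxo36 region, at chr1:84839850-84839961, was seen in 3 db/db livers and 1 lean liver, with a median fold enrichment of 20.92 in the authors' lists. It also lies over Trip12, a HECT ligase gene, and reads of the pair cannot be told apart here. The Trim26 region, at chr17:36837153-36837233, was seen in 2 db/db and 2 lean mice. The Rnf149 region was seen in 1 db/db and 2 lean mice, that of Fbxo9 in 1 db/db and 1 lean mouse. Those of Fbxo46 and Rnf34 were seen in 0 db/db and 2 lean mice. For Fbxo9 only the peak of db/db mouse 1 reached the window, and that of lean mouse 4 ended short of it. The letters GGAC, a frequent core of m6A sites, occurred in none of the 6 windows within the 50 bases from the annotated start on. Of 32851 RefSeq windows 18.9% hold them there. Their reverse complement, GTCC, occurred 2 times in Fbxo36 and in none of the other 5 windows, against 17.4% of all windows. Only these 50 bases of each gene were searched, so the letters may occur elsewhere under the same region.

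Ligase genes of these families were found with a peak somewhat more often than other annotated genes. RefSeq lists 229 protein-coding genes under the 5 names, of which 103 had a peak in at least 1 liver (45.0%), compared with 7887 of 21900 protein-coding genes overall (36.0%). The share was 50.6% for Rnf (42 of 83), 45.6% for Trim (31 of 68), 47.2% for Fbxo (17 of 36) and 44.4% for Fbxl (8 of 18). For Fbxw it was 20.8% (5 of 24). These shares are descriptions without a test. Fbxo18, the remaining member, matched RefSeq by its gene ID under another symbol. The members' median annotated gene length was 27.0 kb, and that of all genes with a peak was 26.6 kb.

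The annotation deposited with the peaks followed the biochemistry of the families. Zinc ion binding was listed for 39 of 42 Rnf and 26 of 31 Trim members, the metal that holds a RING or B-box together. The SCF ubiquitin ligase complex was listed for 3 of 5 Fbxw, 3 of 8 Fbxl and 6 of 18 Fbxo members. Innate immune response was listed for 8 of 31 Trim members, and an integral membrane place for 17 of 42 Rnf members. No ubiquitin or ligase term was listed for 30 of 104 members, among them Fbxl17, Trim26, Trim30a, Trim44 and Rnf26, and membership here rests on the name.

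Members were seen in about as many mice as other genes. A peak in 1 mouse only was listed for 40 members (38.5%), and for 3186 of all 8284 genes (38.5%). A peak in at least 4 mice was listed for 31 members (29.8%), against 25.3% of all genes, and the median was 2 mice in both sets. Peaks in all 8 mice were listed for 5 members (4.81%), against 3.60% of all genes. The 5 were Trim63, Trim39, Trim41, Rnf144b and Fbxw7, and a further 5 had peaks in 7 mice, namely Fbxl14, Fbxw8, Trim8, Rnf19a and Rnf26. The plot of covered bases shows the 31 members with a peak in at least 4 mice.

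**Figure D1:**
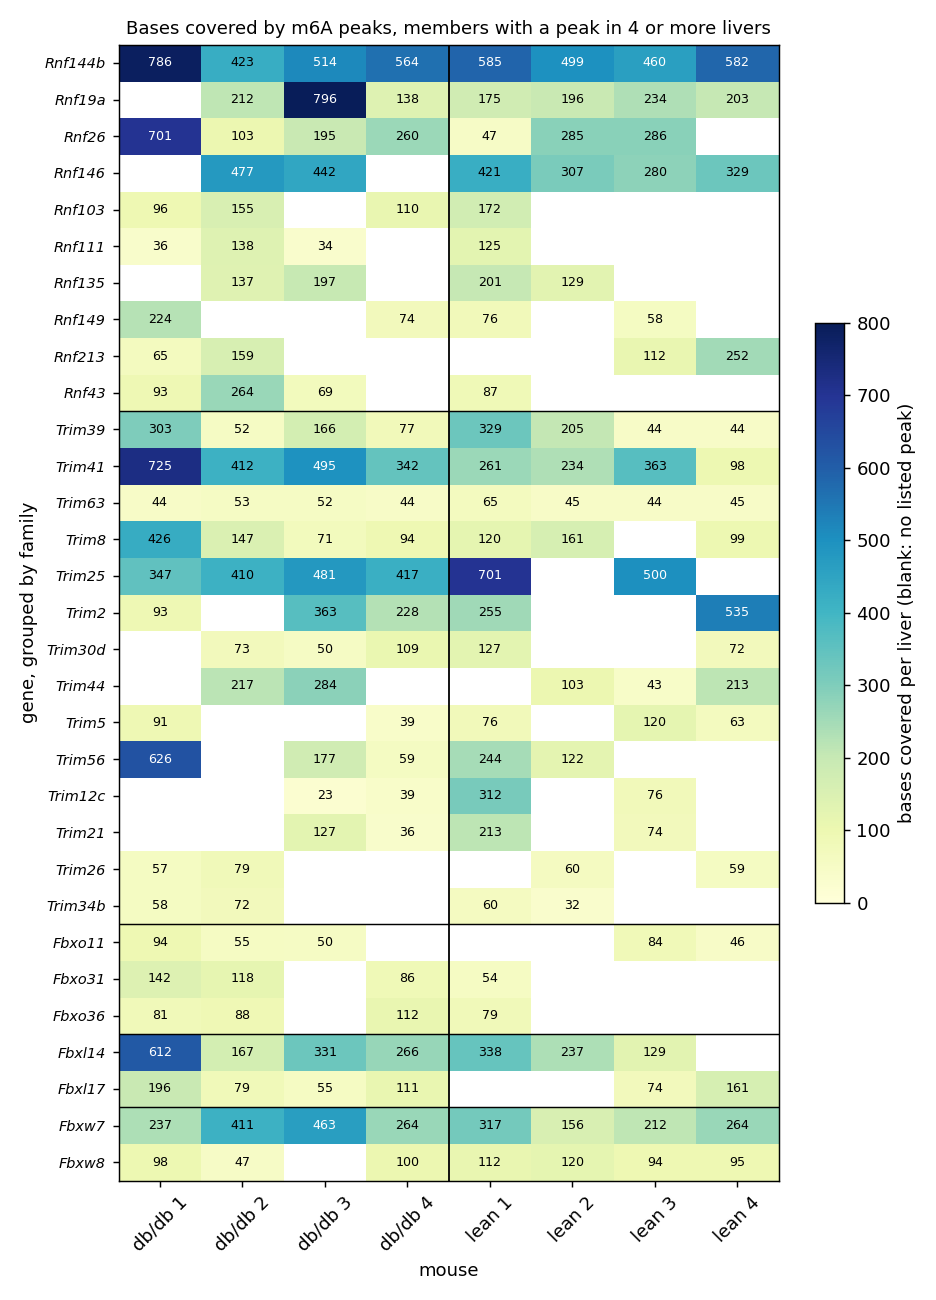
Bases covered by m6A peaks (colour and printed number) in each of the 31 members with a peak in at least 4 livers, one row per gene grouped by family and one column per mouse, db/db mice left of the line and lean mice right of it; blank cells have no listed peak. Rnf144b is filled in all 8 mice with 423 to 786 bases, and Trim63 is filled in all 8 with 44 to 65 bases.

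Single regions recurred less than genes did. Of 232 member regions 182 were seen in 1 mouse (78.4%), against 76.6% of all 17936 regions. Regions seen in at least 6 mice numbered 12 (5.17%, against 3.53% of all regions) and lay in 11 members. Of the 54 members with peaks in both genotypes, 35 held a region seen in both (64.8%), against 61.7% of the 4070 such genes overall. The other 19, among them Rnf111, Fbxo11, Fbxo31 and Trim5, had peaks in different places in the genotypes. Member regions were 17 to 764 bases long, and 12 of them exceeded 300 bases (5.17%, against 2.89% of all regions). Of these 12, 8 were seen in at least 4 mice.

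Among the Rnf genes, those of the RING-between-RING (RBR) class, which take ubiquitin onto themselves before passing it on, included the most regular peaks. Of 8 RBR genes listed, 5 had a peak. Rnf144b, an RBR ligase linked to cell death, had peaks over 786, 423, 514 and 564 bases in db/db mice 1 to 4 and over 585, 499, 460 and 582 bases in lean mice 1 to 4. The values of the genotypes overlapped throughout (exact permutation test on covered bases, two-sided, p = 0.771). Its main region, chr13:47244392-47245155, was 764 bases long, the longest of any member, was seen in all 8 mice and lay 3.22 kb from the 3′ end of the gene. Rnf19a, also called dorfin, had 0, 212, 796 and 138 covered bases in db/db mice 1 to 4 and 175, 196, 234 and 203 in lean mice 1 to 4. The db/db mice spread widely, on both sides of the lean mice, which lay close together. The region they share, chr15:36265798-36266031, was seen in 3 db/db and 4 lean mice. Rnf31, the catalytic subunit of the complex that builds linear ubiquitin chains, was marked in 2 db/db livers and 0 lean livers, Rnf216 in 2 db/db livers and 1 lean liver, and Rnf217 in 1 db/db liver and 0 lean livers. Rnf14, Rnf19b and Rnf144a had no listed peak.

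Membrane-bound RING ligases act on proteins of the endoplasmic reticulum, lysosomes and cell surface, and 13 of the 21 listed had a peak. In 5 of the 13 the peak was seen in more db/db mice, in 6 in more lean mice, and in 2 in equal numbers. Rnf145 and Rnf139 are ligases of the endoplasmic reticulum that act in sterol control. Rnf145 had 94, 0, 251 and 51 covered bases in db/db mice 1 to 4 and 0 in each lean mouse, with folds of 25.29, 4.78 and 21.67 in db/db mice 1, 3 and 4. The 3 peaks did not overlap one another, so no single place in the gene was marked in more than 1 mouse. Rnf139 had 0, 0, 271 and 0 covered bases in db/db mice 1 to 4 and 292, 228, 0 and 0 in lean mice 1 to 4, in a region over which Tatdn1 is also annotated. Rnf152, a lysosomal ligase that acts on the mTORC1 pathway, showed the opposite pattern to Rnf145. It had 0 covered bases in each db/db mouse and 0, 44, 38 and 62 in lean mice 1 to 4, again at 3 different places and at low folds of 5.31 to 6.52. Rnf43, which removes Frizzled receptors from the cell surface, had 93, 264, 69 and 0 covered bases in db/db mice 1 to 4 and 87, 0, 0 and 0 in lean mice 1 to 4. Rnf103 had 96, 155, 0 and 110 in db/db mice 1 to 4 and 172, 0, 0 and 0 in lean mice 1 to 4. In Rnf43 and Rnf103 alike the lean peak came from lean mouse 1 alone, whose list holds the most member peaks of the lean group.

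Rnf146 binds poly-ADP-ribose and acts with tankyrase to degrade axin, a brake on Wnt signalling. Its peaks covered 0, 477, 442 and 0 bases in db/db mice 1 to 4 and 421, 307, 280 and 329 in lean mice 1 to 4. Of the db/db mice 2 were marked, both with more bases than any lean mouse, and all 4 lean mice were marked. One region, chr10:29347053-29347633, held 6 of its 7 peaks. Rnf26, which anchors endosomes at the endoplasmic reticulum, had 701, 103, 195 and 260 covered bases in db/db mice 1 to 4 and 47, 285, 286 and 0 in lean mice 1 to 4, over 7 regions. Its most regular region, chr9:44111314-44111642, was seen in 4 db/db and 2 lean mice. Rnf111 (arkadia), a ligase that recognises SUMO chains and strengthens TGF-beta signalling, had 36, 138, 34 and 0 covered bases in db/db mice 1 to 4 and 125, 0, 0 and 0 in lean mice 1 to 4, at 4 different places. Rnf213, a very large ligase found on lipid droplets, had 65, 159, 0 and 0 covered bases in db/db mice 1 to 4 and 0, 0, 112 and 252 in lean mice 1 to 4.

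Ligases of histones and DNA repair were marked in few mice. Peaks were listed in 5 of 7 genes of this list, and none of them in at least 4 mice. Rnf168, which extends the ubiquitin mark at DNA breaks, was marked in 2 db/db livers and 1 lean liver, and Rnf8, which acts before it, in 1 liver of each genotype. Rnf2, the catalytic subunit of the polycomb complex PRC1, and Rnf20, which ubiquitylates histone H2B, each had a peak in 1 lean mouse only. Rnf126, a cytosolic ligase that clears mislocalised proteins, had 126, 0, 0 and 0 covered bases in db/db mice 1 to 4 and 47, 70, 0 and 0 in lean mice 1 to 4. Rnf220 had 0 covered bases in each db/db mouse and 46, 38, 0 and 36 in lean mice 1 to 4. Its region in lean mice 1 and 4 lies over the annotated gene Gm12843 as well.

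Of the larger families Trim genes were marked in the most mice, as a description without a test. A peak in at least 4 mice was listed for 14 of 31 Trim genes (45.2%), 10 of 42 Rnf genes (23.8%), 3 of 18 Fbxo genes (16.7%), 2 of 8 Fbxl genes (25%) and 2 of 5 Fbxw genes (40%). The highest folds were those of Trim63, the muscle ligase MuRF1, which breaks down sarcomere proteins in muscle wasting. Its peaks covered 44, 53, 52 and 44 bases in db/db mice 1 to 4 and 65, 45, 44 and 45 bases in lean mice 1 to 4. The authors' folds for them were 260.31, 219.51, 84.45 and 130.01 in db/db mice 1 to 4 and 63.18, 124.74, 216.29 and 190.09 in lean mice 1 to 4. All 8 peaks fell in 1 region of 65 bases, chr4:134316782-134316846, 1.69 kb from the start of the gene, where no other gene is annotated. They held all 6 member peaks over 100-fold, among 368 member peaks. Over all genes 498 of 28297 peaks exceeded 100-fold, and the highest fold was 64390.8. The mean rank of the Trim63 peaks was at 98.6% of the folds of their own lists. Fbxo32, the muscle ligase atrogin-1, was marked in 2 db/db livers and 1 lean liver, as was Fbxo40, while Trim54 and Trim55 had none. Of the muscle markers Ckm, Acta1 and Myh4 had no listed peak, and Ttn had 1, in a lean mouse. The part of muscle RNA in the Trim63 peaks was not tested.

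**Figure D2:**
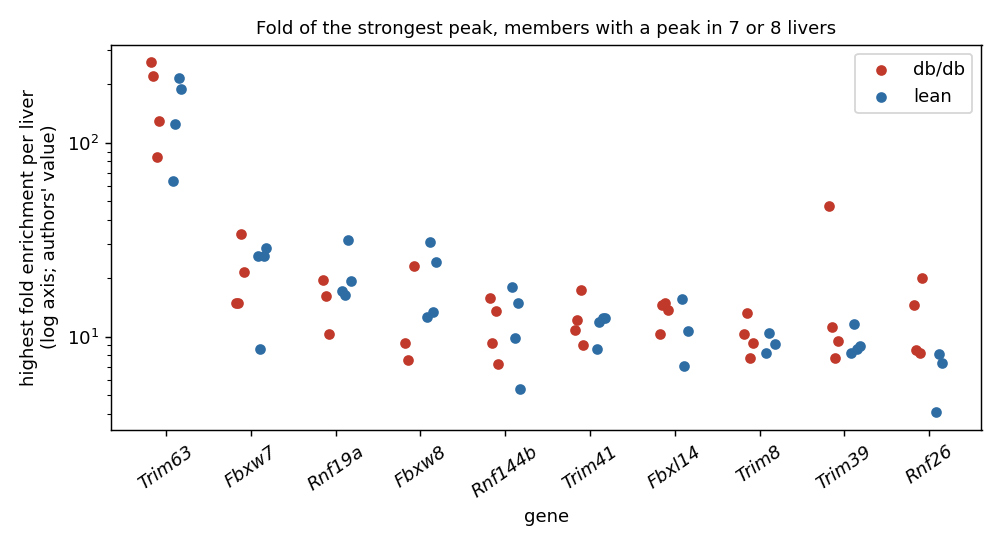
Fold enrichment of the strongest peak per liver (authors' value, log axis) for the 10 members with a peak in 7 or 8 livers, one point per mouse, db/db left of lean within each gene. Folds were deposited list by list, and the background they are relative to is not given in the sources used here. Trim63 lies between 63.18 and 260.31, and the other 9 genes lie below 50.

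Trim41 and Trim39 also had peaks in all 8 mice. Trim41 peaks covered 725, 412, 495 and 342 bases in db/db mice 1 to 4 and 261, 234, 363 and 98 bases in lean mice 1 to 4. The db/db values lay higher, with an overlap between db/db mouse 4 and lean mouse 3. The exact permutation test on covered bases gave a two-sided p of 0.0571, the smallest of any member, and an adjusted p of 1 over all 8284 genes. The region chr11:48816090-48816704, of 615 bases, was seen in all 8 mice. Trim39, a ligase that acts in apoptosis and the cell cycle, had 303, 52, 166 and 77 covered bases in db/db mice 1 to 4 and 329, 205, 44 and 44 in lean mice 1 to 4. Its 12 peaks fell into 5 regions, none of them seen in more than 5 mice. Trim8, which acts in cytokine signalling, had 426, 147, 71 and 94 covered bases in db/db mice 1 to 4 and 120, 161, 0 and 99 in lean mice 1 to 4, with a region near one end of the gene, chr19:46501661-46501821, seen in 3 mice of each genotype.

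Trim genes of innate immunity sense or restrain viruses, and 12 of 16 listed had a peak, 7 of them in at least 4 mice. Trim25, which activates the RNA sensor RIG-I, had 347, 410, 481 and 417 covered bases in db/db mice 1 to 4 and 701, 0, 500 and 0 in lean mice 1 to 4. All 4 db/db mice were marked and 2 lean mice, which when marked lay above every db/db mouse. All 6 of its peaks fell in 1 region of 701 bases, chr11:89016289-89016989, 3.66 kb from the 3′ end. Rnf135, also called Riplet, ubiquitylates RIG-I as well. It had 0, 137, 197 and 0 covered bases in db/db mice 1 to 4 and 201, 129, 0 and 0 in lean mice 1 to 4, with a region seen in 2 mice of each genotype. Trim56, which acts in antiviral signalling, had 626, 0, 177 and 59 in db/db mice 1 to 4 and 244, 122, 0 and 0 in lean mice 1 to 4. Trim21, the receptor of antibodies that enter the cytosol, had 0, 0, 127 and 36 in db/db mice 1 to 4 and 213, 0, 74 and 0 in lean mice 1 to 4. In Trim56 and Trim21 the ranges of the genotypes overlap, and each genotype has mice with and without a peak.

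The Trim genes clustered on chromosome 7 (chr7:104244448-104507853), relatives of the primate retrovirus restriction factor TRIM5, had many peaks that did not recur. Trim5, Trim12a, Trim12c, Trim30a, Trim30d, Trim34a and Trim34b held 32 of 132 Trim peaks in 30 regions. Of these regions 28 were seen in 1 mouse, as were 78.4% of member regions and 76.6% of all regions. The other 2 were each seen in 2 mice. Peaks numbered 4, 2, 4 and 4 in db/db mice 1 to 4 and 9, 3, 4 and 2 in lean mice 1 to 4 (means of 3.5 ± 1 for db/db and 4.5 ± 3.11 for lean, SD, n = 4 each). Trim34a and Trim34b, near copies of each other, had peaks of the same length in db/db mouse 1 (58 bases), lean mouse 1 (60 bases) and lean mouse 2 (32 bases), with different folds. Trim30d had 0, 73, 50 and 109 covered bases in db/db mice 1 to 4 and 127, 0, 0 and 72 in lean mice 1 to 4. Trim12c had 0, 0, 23 and 39 in db/db mice 1 to 4 and 312, 0, 76 and 0 in lean mice 1 to 4. Trim5 had 91, 0, 0 and 39 in db/db mice 1 to 4 and 76, 0, 120 and 63 in lean mice 1 to 4. In each of them the genotypes overlap. Genes of such a cluster can share reads, and how the authors placed those is not given in the sources used here, so values of single cluster genes are uncertain. Outside the cluster, Trim44, which lacks a RING, had 0, 217, 284 and 0 covered bases in db/db mice 1 to 4 and 0, 103, 43 and 213 in lean mice 1 to 4, and Trim7 had 0, 0, 52 and 78 in db/db mice 1 to 4 and 0, 47, 0 and 0 in lean mice 1 to 4. Of the NHL-repeat Trim genes 3 of 4 had a peak. Trim2, known as a ligase of neurons, had 93, 0, 363 and 228 covered bases in db/db mice 1 to 4 and 255, 0, 0 and 535 in lean mice 1 to 4, in 8 regions. Of the 4 transcription cofactors of the TIF1 group, Trim24 had a peak in 1 db/db mouse, Trim33 in 1 db/db and 2 lean mice, and Trim28 and Trim66 had none.

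Among the F-box receptors with WD40 repeats, Fbxw7 and Fbxw8 were marked most regularly. Fbxw7, which sends SREBP transcription factors of lipid synthesis, c-Myc and Notch to degradation, had 237, 411, 463 and 264 covered bases in db/db mice 1 to 4 and 317, 156, 212 and 264 in lean mice 1 to 4. The genotypes overlapped (exact permutation test, two-sided, p = 0.200). It held 2 regions that were each seen in 4 db/db and 3 lean mice. The first, chr3:84903630-84903924, lay in the middle of the gene and the second, chr3:84977339-84977627, lay 1.72 kb from its 3′ end. Fbxw8, which pairs with the cullin Cul7 and targets the insulin receptor substrate IRS-1, had 98, 47, 0 and 100 covered bases in db/db mice 1 to 4 and 112, 120, 94 and 95 in lean mice 1 to 4. Its region chr5:118155324-118155443 was seen in 2 db/db and 4 lean mice. Fbxw4 had 0 covered bases in each db/db mouse and 64, 69, 0 and 67 in lean mice 1 to 4, at 1 place, chr19:45640437-45640510. Unlike the peaks of Rnf145 and Rnf152, those of Fbxw4 overlapped one another. Fbxw11, a beta-TrCP protein that acts on clock and NF-kB factors, and Fbxw17 each had a peak in 1 lean mouse.

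Fbxl14, which targets the Snail transcription factors, had 612, 167, 331 and 266 covered bases in db/db mice 1 to 4 and 338, 237, 129 and 0 in lean mice 1 to 4 (exact permutation test, two-sided, p = 0.229). The ranges overlapped, and the region chr6:119480527-119481121 also lies within the bounds of Wnt5b. Fbxl17, which removes wrongly paired BTB proteins, had 196, 79, 55 and 111 covered bases in db/db mice 1 to 4 and 0, 0, 74 and 161 in lean mice 1 to 4. Its 10 peaks lay in 8 regions of a gene on chromosome 17, 63045949 to 63504184, and the most recurrent one was seen in 3 mice. Fbxl18 had 268, 193, 0 and 0 covered bases in db/db mice 1 to 4 and 0, 0, 0 and 62 in lean mice 1 to 4, at 6 places.

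Fbxo genes were marked in few mice, and the most recurrent were Fbxo11, Fbxo31 and Fbxo36. Fbxo11, which targets BCL6, had 94, 55, 50 and 0 covered bases in db/db mice 1 to 4 and 0, 0, 84 and 46 in lean mice 1 to 4, at 5 different places. Fbxo31, which targets cyclin D1, had 142, 118, 0 and 86 in db/db mice 1 to 4 and 54, 0, 0 and 0 in lean mice 1 to 4, also at 5 places. Fbxo36, with the region shown above, had 81, 88, 0 and 112 in db/db mice 1 to 4 and 79, 0, 0 and 0 in lean mice 1 to 4. In Fbxo31 and Fbxo36 the only lean peak was that of lean mouse 1. Fbxo28 had 266, 0, 0 and 96 covered bases in db/db mice 1 to 4 and none in lean mice, and Fbxo9 had 472, 0, 0 and 0 in db/db mice 1 to 4 and 0, 0, 0 and 52 in lean mice 1 to 4. Fbxo21 had 100, 0, 91 and 0 covered bases in db/db mice 1 to 4 and 64, 0, 0 and 0 in lean mice 1 to 4. None of the 5 listed receptors of glycoproteins, Fbxo2, Fbxo6, Fbxo17, Fbxo27 and Fbxo44, had a peak.

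No member passed a test of the difference between the genotypes. Of the 104 members 47, 34, 39 and 38 had a peak in db/db mice 1 to 4 and 51, 27, 29 and 30 in lean mice 1 to 4. All db/db mice lay above lean mice 2, 3 and 4, and lean mouse 1 lay above all others. On average 38.0 ± 5.24% of members were marked per db/db liver and 32.9 ± 10.8% per lean liver (SD, n = 4 each), and over all genes 35.3 ± 5.53% per db/db liver and 30.5 ± 7.60% per lean liver. The difference between the genotypes was 5.25 members. Without lean mouse 1 it was 10.8, and the 34 to 47 members in db/db mice then did not overlap the 27 to 30 in lean mice. Over all genes 39.4, 27.8, 34.6 and 39.5% were marked in db/db mice 1 to 4 and 41.6, 29.0, 24.4 and 27.2% in lean mice 1 to 4. Lean mouse 1 was thus highest there too, and without it only db/db mouse 2 lay within the lean range. After the share over all genes in the same list was taken off, members stood 2.63 percentage points above it in db/db and 2.39 in lean mice, a difference of 0.241 points. When the lists were cut to their 2475 peaks of highest fold, the difference in members turned to -1.75. This cut selects by fold and does not correct for depth.

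**Figure D3:**
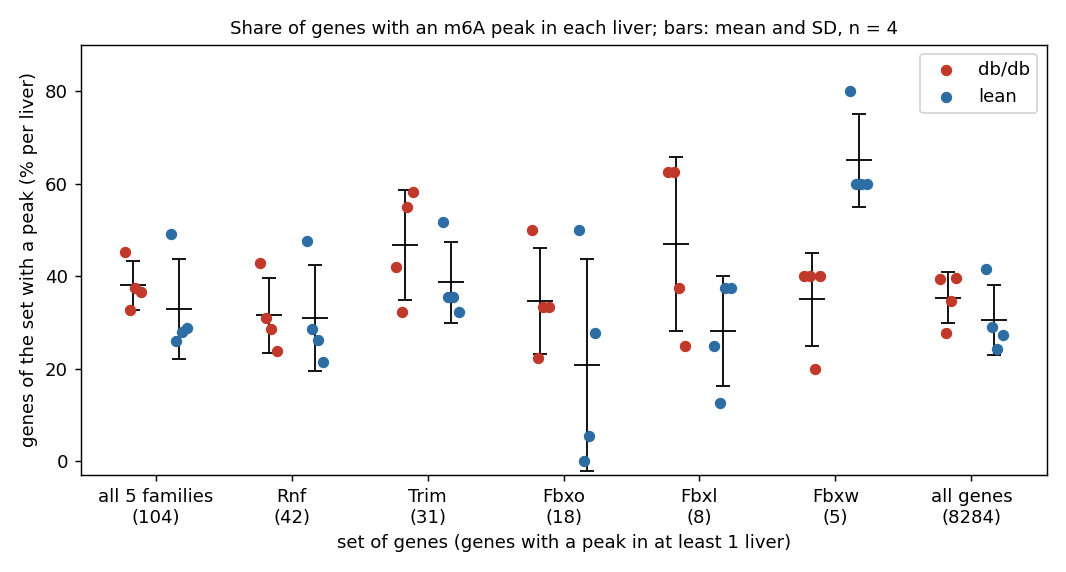
Share of genes with a peak in each liver (% of the genes of the set, number of genes below its name), one point per mouse, db/db left of lean in each set; lines and bars give the mean and SD of 4 mice. The genotypes overlap in all sets but Fbxw, where db/db mice lie at 20 to 40% and lean mice at 60 to 80%. Of the 5 Fbxw genes 3 are members through lean lists alone.

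Counted by gene, 50 members (48.1%) had a peak in more db/db mice, as did 45.3% of all genes. In 33 members (31.7%) and 32.3% of all genes it was more lean mice, and in 21 members the numbers were equal. By family, more db/db mice were marked for 18 Rnf, 15 Trim, 11 Fbxo, 6 Fbxl and 0 Fbxw genes, and more lean mice for 17 Rnf, 7 Trim, 4 Fbxo, 1 Fbxl and 4 Fbxw genes. Lists of db/db mice held more peaks on average, with 3882 ± 848 per db/db list and 3192 ± 833 per lean list (SD, n = 4 each). Peaks in db/db mice only were listed for 28 members (26.9%, against 30.1% of all genes), 23 of them in 1 mouse. Peaks in lean mice only were listed for 22 members (21.2%, against 20.8% of all genes), 17 of them in 1 mouse. These shares stood within a few percentage points of those of all genes. A difference of at least 2 mice towards db/db was found for 12 members (11.5%) and 12.1% of all genes had one. Towards lean it was 6 members (5.77%), against 7.33% of all genes. A difference of at least 3 mice towards db/db was found for Rnf145 alone (0.962%, against 2.44% of all genes). Towards lean it was found for Rnf152, Rnf220 and Fbxw4 (2.88%, against 1.1% of all genes).

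Fisher's exact test on the number of mice with a peak gave a two-sided p under 0.05 for 0 members, while 0.338% of all 8284 genes reached it (0.205% towards db/db, 0.133% towards lean). With 3 mice against 0, as in Rnf145, Rnf152, Rnf220 and Fbxw4, the exact p is 0.143, and 4 mice against 0, which no member showed, would give 0.0286. The adjusted p was 1 for every gene. Among regions, 0 of 232 member regions reached a p under 0.05 by Fisher's exact test, against 0.167% of all regions. A difference of at least 3 mice was found for 0 member regions towards db/db (0.479% of all regions) and towards lean for 1, that of Fbxw4 (0.663% of all regions). The exact permutation test on covered bases gave 0 members under 0.05, against 0.869% of all genes (0.531% higher in db/db, 0.338% higher in lean). With 4 mice against 4, only a complete split between the genotypes can give a p under 0.05 in these tests. The p-values rest on these mice alone.

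**Figure D4:**
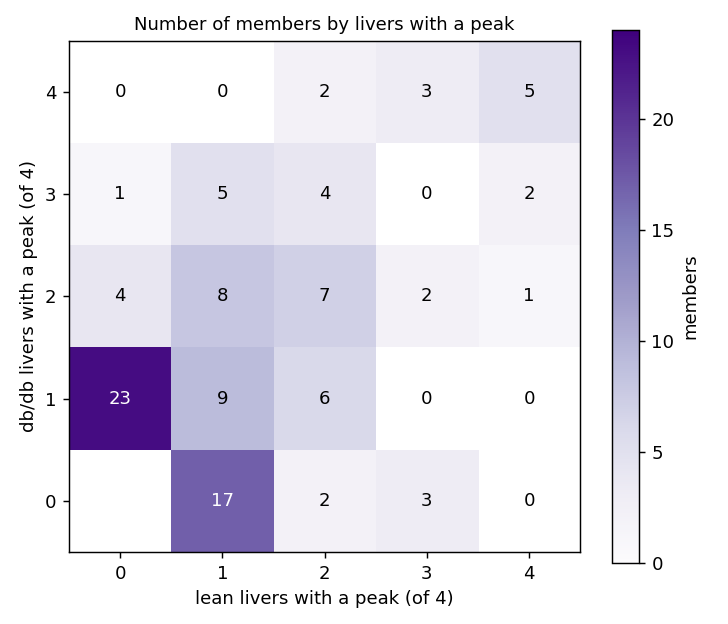
Number of members (printed and shaded) by the number of db/db livers with a peak (vertical axis, of 4) and the number of lean livers with a peak (horizontal axis, of 4). The fullest cells hold 23 genes seen in 1 db/db liver only and 17 seen in 1 lean liver only, and the corners at 4 livers against 0 hold no gene.

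The Fbxw family was the only one whose shares per mouse did not overlap between the genotypes. Of its 5 genes 2, 2, 1 and 2 had a peak in db/db mice 1 to 4 and 4, 3, 3 and 3 in lean mice 1 to 4, or 35 ± 10% of the family per db/db liver and 65 ± 10% per lean liver (SD, n = 4 each). The difference came from Fbxw4, Fbxw8, Fbxw11 and Fbxw17, and bases covered over the family were 405 ± 65.2 in db/db and 414 ± 94.1 in lean livers (SD, n = 4 each). Over all genes the share was 35.3 ± 5.53% per db/db liver and 30.5 ± 7.60% per lean liver. A peak in 1 list sufficed for membership. Of the 5 Fbxw genes 3 (Fbxw4, Fbxw11 and Fbxw17) entered through lean lists alone and 0 through db/db lists alone. The split in shares thus follows in part from how members were chosen, and no test was made over so few genes. Rnf genes with a peak numbered 18, 13, 12 and 10 in db/db mice 1 to 4 and 20, 12, 11 and 9 in lean mice 1 to 4. Trim genes numbered 13, 10, 17 and 18 in db/db mice 1 to 4 and 16, 11, 11 and 10 in lean mice 1 to 4. Fbxo genes numbered 9, 4, 6 and 6 in db/db mice 1 to 4 and 9, 0, 1 and 5 in lean mice 1 to 4. Fbxl genes numbered 5, 5, 3 and 2 in db/db mice 1 to 4 and 2, 1, 3 and 3 in lean mice 1 to 4. In each of these 4 families the ranges overlapped.

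Fold enrichment is the authors' value within each list. Its median was 8.64 over the 125 Rnf peaks, 10.6 over the 132 Trim peaks, 9.78 over the 48 Fbxo peaks, 11.1 over the 35 Fbxl peaks and 15.3 over the 28 Fbxw peaks, and 10.97 over all peaks. Ranked within their own lists, Rnf peaks had a median percentile of 33.6 and Fbxw peaks of 70.1. Peaks were longest in Fbxw genes, with a median of 116 bases, against 94 in Rnf, 90 in Fbxl, 72 in Trim, 71 in Fbxo and 74 in all genes. Of the 28 Fbxw peaks 16 were in Fbxw7 and 7 in Fbxw8, so the Fbxw medians mostly describe these genes rather than the family. A fold listed for at least 10 peaks of the same list was found at 24.7% of member peaks and 28.9% of all peaks. In lean mouse 4, for example, Fbxo46, Trim44 and Trim5 each had a fold of 18.8.

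Member regions lay along the genes much as other regions did. Of 199 member regions inside genes of known strand 39.2% fell in the last 20% of the gene, introns included, against 38.7% of all regions. Within 5 kb of the 3′ end lay 42.7% of member regions and 40.8% of all regions. Within 1 kb of the start lay 15.1% of member regions and 20.0% of all regions. The median position was at 80.2% of the gene in Fbxo genes and 41.7% in Fbxl genes. The Fbxl value rests on 20 regions, of which 8 lay in Fbxl17 and 6 in Fbxl18. Among regions seen in at least 4 mice, 62.5% of 16 member regions lay within 5 kb of the 3′ end, against 49.7% of all such regions. Exons were not part of the annotation used, so coding and untranslated parts were not told apart. In all, 15 member regions in 12 members share bases with another annotated gene, and 2 regions, in Trim34b and Trim56, lie outside the bounds of their gene.

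**Figure D5:**
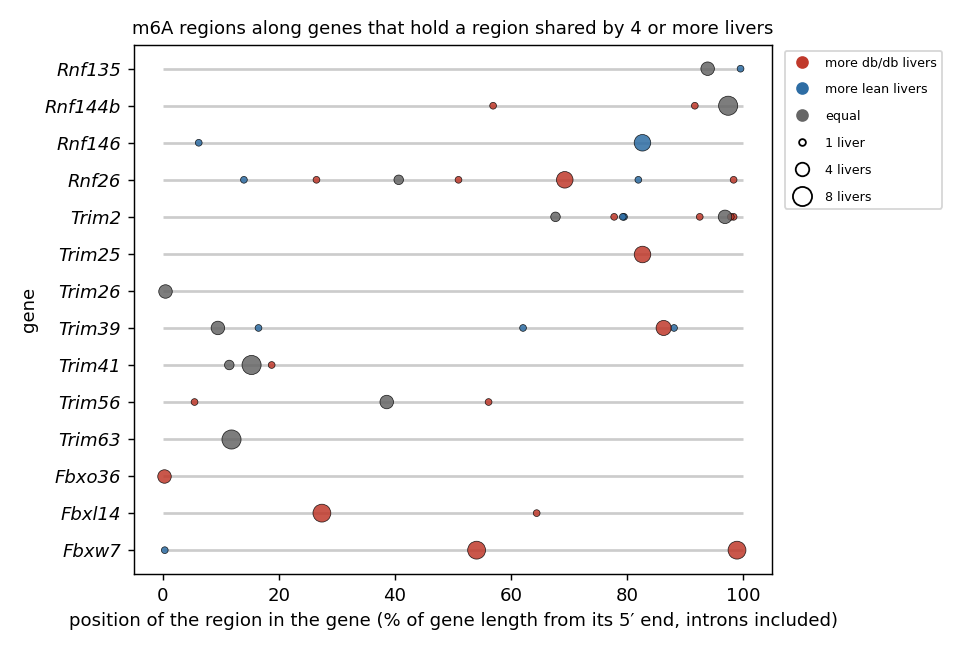
Position of each m6A region (% of gene length from the 5′ end, introns included) in the 14 members of known strand that hold a region seen in at least 4 livers, one grey line per gene; point size gives the number of livers and colour whether more db/db livers, more lean livers or equal numbers carry the region. Rnf144b, Trim2 and Fbxw7 have a large point past 95% of the gene, Trim26 and Fbxo36 at its very start.

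Other genes of the ubiquitin pathway give a wider setting for these families, without a test between them. Of 181 other genes listed for E1, E2, cullin scaffold, HECT and further RING ligases, 105 had a peak (58.0%), in a median of 3 mice, and 36 (34.3%) in at least 4 mice. All 7 E1 genes had a peak, as did 16 of 33 E2 genes, 10 of 27 genes of the cullin scaffold and its control, 16 of 26 HECT ligases, 12 of 16 ligases of these families under other names and 44 of 72 other RING or RBR ligases. More db/db mice were marked for 56 of the 105 (53.3%, against 45.3% of all genes), more lean mice for 27 (25.7%, against 32.3% of all genes) and equal numbers for 22. Ubr2, a ligase that reads the first residue of proteins, was marked in 4 db/db livers and 0 lean livers (Fisher's exact test, two-sided, p = 0.0286, adjusted p = 1). Its 5 peaks lay in 4 regions, so no region was seen in all 4 of these mice. It was the 1 gene of the 105 with such a p towards db/db, against 0.205% of all genes, and no gene of these lists showed the reverse. Ube2k, an E2, and the ligases Mkrn1 and Pja1 had a peak in all 8 mice. Of the SCF scaffold that the F-box members need, Cul1 was marked in 0 db/db and 2 lean livers and Rbx1 in 2 db/db and 0 lean livers, while Skp1a had none.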

How the data were processed

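m6A peaks were measured in livers of 4 db/db and 4 lean mice, with groups and mouse numbers from the sample titles and 1 list assigned to the mouse its sheet names. The submitters' processing notes name cutadapt 1.9.3, HISAT2 2.0.4 and the build mm10. Per the file headers, peaks carry names in the style of MACS, and the caller's version and its use of input libraries are not given in the sources used here. Each fold enrichment is a ratio deposited by the authors for a peak of 1 list, and the background it was measured against is not given either. The deposited score is -10 times the log10 of the peak's p-value, and the lowest was 50. Peak length in bases was deposited as well, and 8 columns that repeat the score were not used. The lists give no read counts, so depth is unknown.

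Peaks of a gene that share at least 1 base across mice were joined into regions. Gene bounds came from RefSeq GRCm38.p6, whose coordinates are those of mm10, matched by gene ID for all 104 members, and strand from its promoter table for 84. Each gene and region had a two-sided Fisher exact test of mice with a peak, and each gene an exact permutation test of covered bases over the 70 assignments of mice, with Benjamini-Hochberg adjustment over all genes or regions (Python 3.11.15, pandas 2.3.3, scipy 1.17.1). These functions were tested on simulated data. The genes, lists and rule were chosen with earlier results of these data known. The rule names members with peaks in all mice of one genotype only, a difference of at least 3 mice, peaks in at least 7 mice, the 3 highest ranked by fold per family among those in at least 4 mice, a region in at least 6 mice, or at least 3 regions; 45 qualified, and members of role lists are named with their list. Members not named are given in counts. Alternatives were a fold of at least 4.7, a score of at least 100, lists of equal length (the 2475 peaks of highest fold in each), peaks of at least 50 bases, joining at 50% of the shorter peak, a replicate block, family names without a suffix and leaving out each mouse.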

Additional observations from a re-analysis of the deposited data

Results flagged for a closer look

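In 6 of 36 groups of 4 mice examined, the gap between 1 mouse and the other 3 took up most of the range. Chance does so in about 1 of 20 groups of continuous values, but these groups share mice and peaks, and small counts often tie, so the number of such groups says nothing beyond their values. Lean mouse 1 had 51 members with a peak, against 27 to 30 in the other lean mice, and its member peaks covered 8238 bases, against 3788 to 4084. It had 16 Trim genes with a peak, against 10 to 11 in the other lean mice, and 4 Fbxw genes, against 3 in each of the others, a gap of 1 gene. Its Trim63 peak covered 65 bases, against 44 to 45 in the other lean mice. In db/db mouse 3, 1 Fbxw gene had a peak, Fbxw7, whereas db/db mice 1, 2 and 4 had 2 each. The list of lean mouse 1 held the most genes with a peak of the lean group.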

How the results depend on the processing

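No member passed a test at 4 against 4 mice, and under each alternative with all 8 mice the count of members with a Fisher's exact p under 0.05 remained 0. Without db/db mouse 2 (Rnf145), lean mouse 1 (Rnf152) or lean mouse 3 (Fbxw4 and Rnf220) it was 1, 1 and 2, so that leaving out 1 mouse gave 0 to 2. Member regions that split the genotypes completely numbered 0, and 0 to 1 when 1 mouse was left out. Over all genes the count with such a p was 28, against 10 with scores of at least 100 and 49 to 74 without 1 mouse. The 5 members with a peak in all 8 mice became 2 with scores of at least 100, 2 with lists of equal length and 3 with peaks of at least 50 bases, and 5 to 7 without 1 mouse. At 50 bases Trim63 and Trim39 were lost, since in some mice their only peak covered 44 bases.

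The 5.25 more members per db/db mouse ranged from 2.75 to 10.8 without 1 mouse, was 0.750 with scores of at least 100 and turned to -1.75 with lists of equal length. The difference after all genes were taken off, 0.241 points, turned to -1.81 and -2.02 there and to between -1.69 and 2.31 without 1 mouse. The value of 10.8 is that without lean mouse 1, where the counts of the genotypes do not overlap. Over all genes, too, lean mouse 1 had the largest share with a peak, 41.6%. The cause was not tested. In number of mice, db/db minus lean, Fbxo40 and Trim30d turned to -1 and Rnf126, Trim33 and Trim44 to 1 with scores of at least 100, and Trim56 and Trim7 to -1 with lists of equal length.

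Peak presence gave no sign that mouse numbers pair the mice, and this check could not exclude a pairing. Same-numbered mice had correlations of -0.0280 to 0.00877 in their deviations from the group means, and 1 of 8 mice correlated best with its own number. With the number as a replicate block, 0 genes had a p under 0.05, since 4 pairs give a sign-flip p of at least 0.125, and the difference stayed 5.25 members. Leaving out peaks over another annotated gene, an alternative chosen after the data were seen, kept 5.25 and 5. Depth is unknown and limits which marked genes give a peak.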
